A study of Anguilla anguilla with 12 samples.

Results

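The members described here are predicted microRNA (miRNA) hairpins of the European eel (Anguilla anguilla) whose zebrafish seed name carries a number of 700 or more. They were selected by name alone, from the column of the deposited list that names, for each precursor, a zebrafish miRNA of equal seed, where the seed is bases 2 to 8 of the mature sequence. The rule found 27 of 820 listed precursors, which hold 18 of 676 distinct mature sequences under 13 seed names and lie on 21 scaffolds. The other seed-matched precursors numbered 284 and those with no zebrafish example 509.

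Small RNA had been sequenced from the livers of 12 wild yellow eels, the growth stage of the species. Of these, 6 came from Arcachon Bay, which the study calls a pristine site, and 6 from the Gironde Estuary, which it calls polluted. No genotype, treatment, age or sex is given for either group. The list has no column for an animal, so each count below is 1 value with no replicate, taken as pooled over libraries, and the sites were not compared. The miRNAs of hepatocytes, the main liver cells (miR-122, miR-192 and miR-194), held 66.5% of mature reads, most of them from a single miR-122 sequence. Lists for blood, muscle, epithelial, endothelial and neural cells held from 0.000236% to 0.763%. Some of their families had no entry under their name. Entries were found for 1 of 2 red and 2 of 4 white blood cell families, 2 of 4 muscle and 2 of 3 epithelial ones. These shares therefore do not measure cell content.

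A miRNA is cut from a hairpin RNA by the enzymes Drosha and Dicer. One arm of the hairpin, here the mature arm, is usually kept by an Argonaute protein and guides it to target RNAs through the seed, while the other arm (the star) and the loop are degraded. Reads from the star arm are therefore used as support for a predicted hairpin. The database miRBase numbers miRNAs roughly in the order of their entry, so families found early, many of them abundant and shared by most vertebrates, have low numbers. Later numbers include miRNAs known from fish, from fish and other vertebrates outside the mammals, or from few species. A seed name does not show that the rest of the eel sequence matches the zebrafish miRNA, and the zebrafish sequences were not used here.

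The sequences that carry most of the reads, the star support or the differences between copies are shown 5′ to 3′ with the seed in capitals. They are consensus sequences read from the deposited list. The first 5 lines belong to the miR-1388 locus, where both strands were listed and where the star of miR-1388-5p has the seed of miR-1388-3p.
miR-1388-5p: aGGACUGUccaaccugagaaug
star of miR-1388-5p, scaffold 75: aUCUCAGGuuugucagcccaua
star of miR-1388-5p, scaffold 846: aUCUCAGGuuugucagcccaag
miR-1388-3p, opposite strand: uUCUCAGGuuggacaguccugg
star of miR-1388-3p, opposite strand: uGGGCUGAcaaaccugagauug
miR-737-5p: gUUUUUUUagguuuugauuuuu
star of miR-737-5p, scaffold 1507: aAUCAAAAccuaaagaaaaug
star of miR-737-5p, scaffold 463486: aAAUCACUgccuaaagaaagu
miR-2184: aACAGUAAgaguuuaugugcu
star of miR-2184: gCACAUGGgcucuugcgguaca
miR-7147, scaffold 934: uGUACCAUacugguagccagu
miR-7147, scaffold 484194: uGUACCAUgcugguagccagug
miR-722: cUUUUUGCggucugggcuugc
miR-724: uUAAAGGGaauuugcgacuguu
miR-725-3p, scaffold 610: uUCAGUCAuuguuucugguagc
miR-725-3p, scaffold 897: uUCAGUCAuuguuucugguggug
miR-2188-3p, scaffold 24: gUGUGUGAcugagaugag
miR-2188-3p, scaffold 1218: uUGUGUGAcgugugcuguguuccag
miR-2188-3p, scaffold 36: cUGUGUGAgcuguagugcc
miR-730: uCCUCAUUgugcaugcugugu

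Reads were concentrated in a pair of sequences. The 18 distinct sequences held 37299 mature reads, or 0.0137% of the 272589277 mature reads of the list, with identical mature sequences entered once (exact binomial 95% interval 0.0135% to 0.0138%). Outside the miR-122 sequences, of which the most abundant alone had 176573973 reads, their share was 0.0389%. miR-1388-5p held 18452 reads and miR-737-5p 16599, together 94.0% of the reads of all 18. The other 16 sequences held 2248 reads between them, from 8 to 705.

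miR-1388-5p was the 72nd and miR-737-5p the 73rd most abundant of the 200 seed-matched sequences. The third sequence, miR-2184, ranked 124th with 705 reads. Both miR-7147 sequences followed, with 285 and 276 reads. Next came miR-722 with 248 reads and miR-724 with 238. In zebrafish, miR-722 lowers the levels of rac2 and restrains the movement of neutrophils. The median was 100 mature reads for the 18, 6073 for the other 182 seed-matched sequences, 37.5 for the 476 unmatched ones and 67 for all 676. At least 1000 reads were listed for 2 of the 18 (11.1%), 62.1% of the other seed-matched sequences and 21.4% of all. These differences between classes were not tested.

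**Figure D1:**
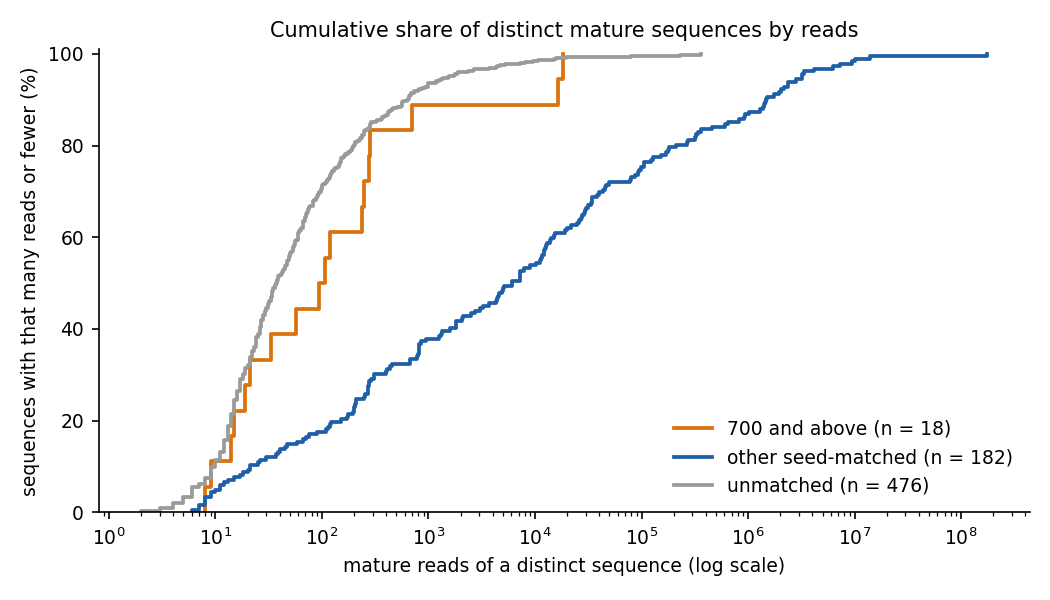
Cumulative share of distinct mature sequences (vertical axis, percent) by mature reads pooled over libraries (horizontal axis, log scale) for names of 700 and above (orange), other seed-matched (blue) and unmatched sequences (grey). Most of the orange line lies near the grey one, at medians of 100 and 37.5 reads, while the blue median is 6073; the last 2 orange steps are miR-737-5p and miR-1388-5p.

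Below these, the miR-2188-3p sequence of scaffold 24 had 120 reads and the miR-2196 sequence of scaffold 8673 had 107. The miR-725-3p sequences had 93 and 57 reads. The remaining 7 sequences had from 8 to 33 reads: miR-2188-3p on scaffold 1218 had 33, miR-727-3p had 21, miR-735-5p had 19 and miR-2188-3p on scaffold 36 had 15. The lowest were miR-730 with 14, miR-1388-3p with 9 and the second miR-2196 sequence with 8. In all, 9 of the 18 had under 100 reads, beside 56.2% of all sequences and 17.6% of the other seed-matched ones.

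**Figure D2:**
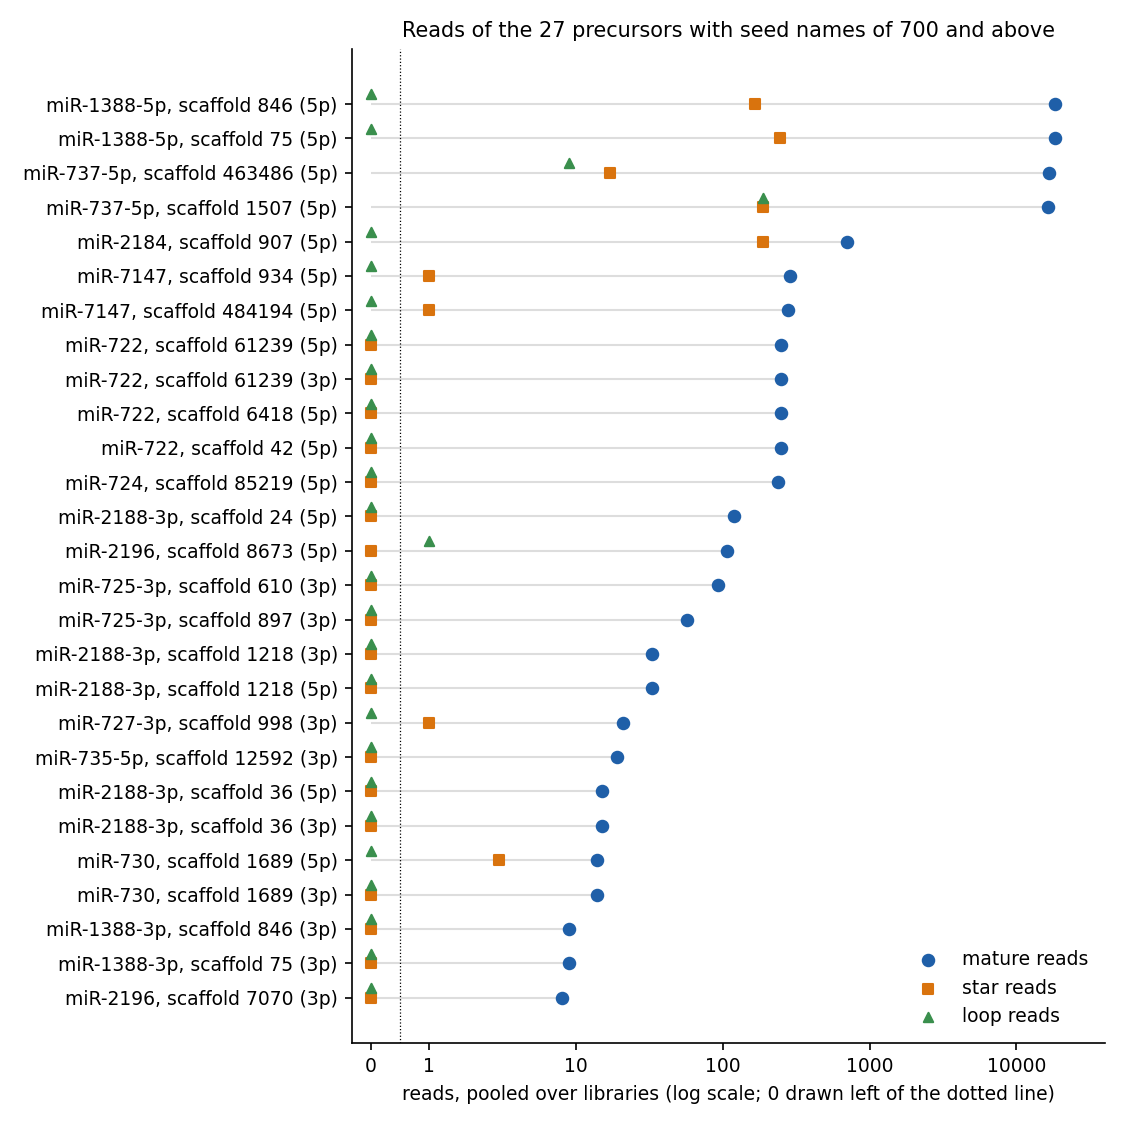
Mature (blue circles), star (orange squares) and loop reads (green triangles) of each of the 27 precursors, pooled over libraries, on a log axis with 0 drawn left of the dotted line; the label gives seed name, scaffold and arm of the mature sequence. The 4 precursors of miR-1388-5p and miR-737-5p have from 16551 to 18452 mature reads, and 18 of the 27 have 0 star reads.

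Star support was found for few members. Of the 18 sequences, 7 had at least 1 star read at the entry with the most mature reads (38.9%, exact binomial 95% interval 17.3% to 64.3%), beside 64.2% of all 676 sequences. The share was 68.1% for the other 182 seed-matched sequences (interval 60.8% to 74.8%). Among sequences with 100 mature reads or more, the share was 5 of 9 for the members (55.6%, interval 21.2% to 86.3%), beside 76.0% of all. It was 77.3% for the other seed-matched ones (interval 69.8% to 83.8%). The difference was not tested, and these intervals overlap.

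miR-2184 had the highest star share of the members with 100 or more reads on both arms together. The hairpin lies on scaffold 907 (75697 to 75755, minus strand) and gave 705 mature and 187 star reads, a star share of 20.96% (interval 18.3% to 23.8%). That was the 42nd highest share of the 425 listed precursors with 100 or more such reads. The miR-2184 hairpin thus gave reads from both arms, most of them from the mature one.

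The 4 hairpins of the pair of abundant sequences had star shares from 0.102% to 1.31%. On scaffold 75 (793971 to 794030, minus strand), miR-1388-5p had 244 star reads and a star share of 1.31% (interval 1.15% to 1.48%). On scaffold 846 (53689 to 53748, plus strand), it had 165 star reads and a share of 0.886% (interval 0.757% to 1.03%). On scaffold 1507 (3947 to 4007, minus strand), miR-737-5p had 189 star reads, or 1.13% (interval 0.975% to 1.30%). Its second hairpin on scaffold 463486 (71 to 130, minus strand) had 17 star reads, or 0.102% (interval 0.0596% to 0.164%). Mature reads of an identical sequence are counted at each copy, so these shares and their intervals do not separate the copies. The miR-737-5p copies differed in star reads, at 189 against 17.

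Elsewhere star reads were few or absent. Each miR-7147 hairpin had 1 star read, which gave shares of 0.350% and 0.361%. Their star sequences are identical, so the same read may have been counted at both, and both sequences are among the 7 with star reads. miR-727-3p (scaffold 998, 55431 to 55495, minus strand) had 1 star read beside 21 mature reads. miR-730 had 3 star reads beside 14 mature reads at 1 of its listings, a share of 17.6% with an interval from 3.80% to 43.4%. The other 18 precursors had 0 star reads. A count of 0 allows up to 3 reads, so the star share could be up to 1.21% for miR-722, 1.26% for miR-724 (scaffold 85219, 161 to 221, minus strand), and 33.3% for miR-1388-3p with 9 reads. The limits for miR-722 and miR-724 lie under the star share of miR-2184. For members with under 15 mature reads and 0 star reads, the limits lie above it, so a count of 0 there does not separate them from miR-2184.

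**Figure D3:**
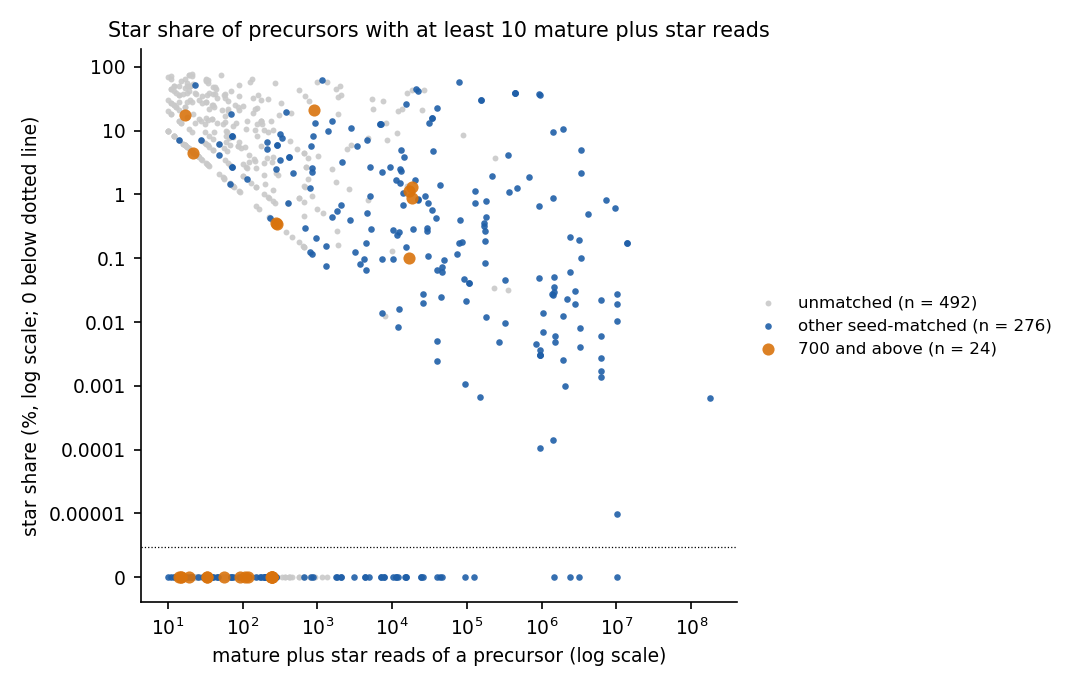
Star share (vertical axis, percent, log scale, 0 below the dotted line) against mature plus star reads (horizontal axis, log scale) of every precursor with at least 10 such reads; orange marks names of 700 and above, blue other seed-matched and grey unmatched precursors. miR-2184 stands at 20.96% with 892 reads, and the members at 0 all have 248 reads or fewer.

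The miRDeep2 score, a log-odds score of each hairpin, split the members the same way. A score of at least 10 was given to 8 members (29.6%, interval 13.8% to 50.2%), beside 42.8% of all precursors and 52.1% of the other seed-matched ones. These 8 scored 11.9 or more and all had star reads. So did the other listed precursors with a score of at least 10, so this is not particular to the members. At any score, star reads were listed for 9 of the 27 members (33.3%) and for 64.4% of all precursors. The other 19 members scored from 0.8 to 3.8, of which 1 had a star read (miR-727-3p, 3.2). Outside the members, some precursors with a score under 10 had many star reads and others had 0. A miR-101a hairpin had 14635 star reads at a score of 3.7, and miR-194b had 5891 at 3.4. The miR-216b hairpin had 0 at 3.5. None of the members scored between 3.8 and 11.9. The members under 10 include 7 precursors with at least 100 mature reads: the 4 listings of miR-722, miR-724, miR-2188-3p on scaffold 24 and miR-2196 on scaffold 8673. Star reads enter the miRDeep2 score, so it is no independent support.

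**Figure D4:**
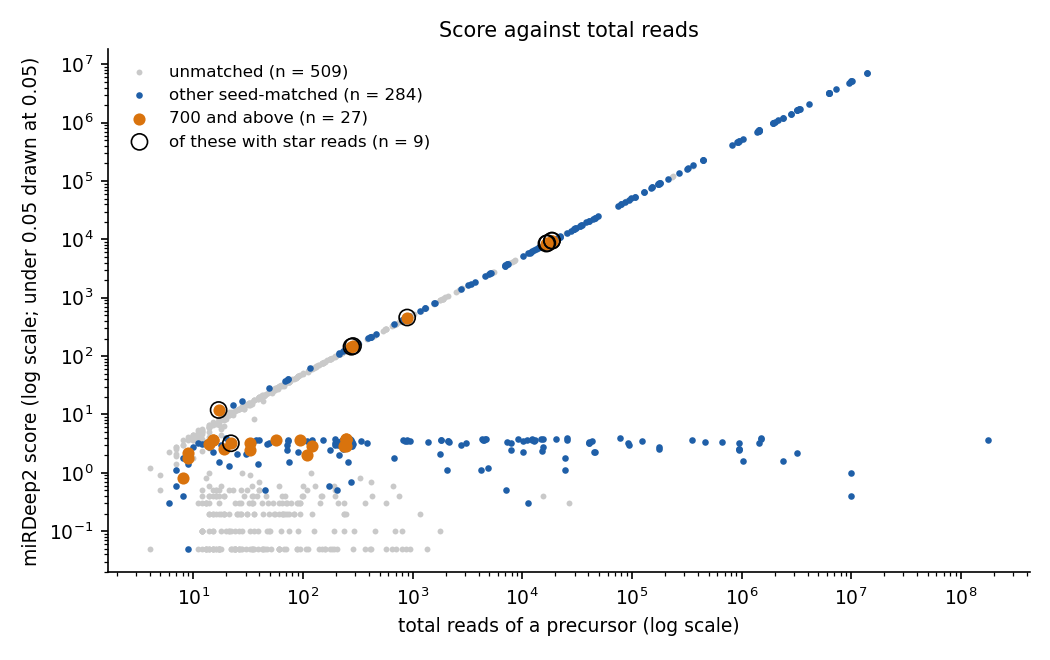
miRDeep2 score (vertical axis, log scale, values under 0.05 drawn at 0.05) against total reads (horizontal axis, log scale) of every precursor; orange marks the 27 members and black rings the 9 of them with star reads. Of the ringed points 8 lie on the rising line at scores of 11.9 to 9534.4, and the other lies with the members without star reads at 3.8 or less.

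Loop reads were listed for 3 of the 27 members (11.1%, interval 2.35% to 29.2%). The share was 10.4% for all precursors and 19.4% for the other seed-matched ones. The miR-737-5p hairpin of scaffold 1507 had 189 loop reads, the third highest loop count of the list. They made up 1.12% of its 16929 reads (interval 0.964% to 1.29%) and equalled its 189 star reads; no other listed precursor had equal counts above 0 for loop and star. Its copy on scaffold 463486 had 9 loop reads, or 0.0541% (interval 0.0248% to 0.103%), and 17 star reads. The hairpin with more star reads thus also had more loop reads. The third was miR-2196 on scaffold 8673 (1427 to 1499, minus strand), with 1 loop read and 0 star reads. The loop of miR-737-5p is 18 nt long on scaffold 1507 and 17 nt on scaffold 463486. The mature sequence of miR-737-5p has 16 U among its 22 bases (72.7%), the highest share of U in the 676 distinct sequences, beside a median of 31.8%.

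Several members were listed more than once, as overlapping predictions or as copies on other scaffolds. An identical mature sequence stood at 2 or more entries for 7 of the 18 sequences (38.9%, interval 17.3% to 64.3%), beside 15.4% of all sequences and 38.5% of the other seed-matched ones. When overlapping predictions on 1 strand were merged, 4 of the 7 were left: miR-1388-5p, miR-1388-3p, miR-737-5p and miR-722. The mature read counts of such entries were equal or nearly so (18452 at both miR-1388-5p hairpins, 16551 and 16599 at miR-737-5p, 248 at all 4 listings of miR-722). Reads of the mature arm are therefore not separated by copy.

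The 2 miR-1388-5p hairpins matched at 56 of 61 aligned positions (91.8%), and their star sequences differed only at the 3′ end (U21A and A22G, counted from the 5′ end of the star, scaffold 75 first). The miR-737-5p hairpins matched at 53 of 61 positions (86.9%). Compared without gaps from the 5′ end, their star sequences differed at 12 of 21 positions. The stars begin at different points of the arm, so this count overstates how far they differ. Of 22 mature bases, 18 pair with the star arm in the predicted fold on scaffold 1507 and 17 on scaffold 463486. The minimum free energies of these folds were −20.6 and −18.4 kcal/mol.

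The 3 miR-722 hairpins read on the 5p arm were much alike in sequence. One lies on scaffold 42 (10512 to 10576, minus strand), the next on scaffold 6418 (5432 to 5495, also minus) and the third on scaffold 61239 (228 to 292, plus). The identity was 92.3% between scaffolds 42 and 61239, 84.6% between 42 and 6418 and 83.1% between 6418 and 61239. Their star sequences were equal on scaffolds 42 and 6418, and that of scaffold 61239 differed by C20U.

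Other names stood for sequences that differed. The miR-7147 hairpins of scaffold 934 (116760 to 116814, plus strand) and scaffold 484194 (787 to 841, plus strand) were 94.5% identical and had the same star sequence. Their mature sequences differed by A9G and by 1 base in length. Reads were close, at 285 and 276. The miR-725-3p sequences, from scaffold 610 (47088 to 47143, on the minus strand) and from scaffold 897 (57124 to 57181, on the plus strand), share their first 19 bases and differ by A20G and C22U. Their hairpins were 74.1% identical.

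miR-2188-3p was the name with most listings, 5 precursors with 3 distinct sequences on 3 scaffolds, and its sequences shared little beyond the seed. Compared from the 5′ end, the sequences of scaffolds 24 and 1218 matched at 8 of 18 positions, those of scaffolds 24 and 36 also at 8 of 18, and those of scaffolds 1218 and 36 at 12 of 19, with the 7 seed positions in each count. Their lengths were 18, 25 and 19 nt, which include the shortest and the longest of the 18 sequences. Lengths under 20 nt were listed for 2 of the 18 and for 29 of all 676 sequences. None of the 5 precursors had a star read. The pair of miR-2196 sequences likewise matched at 13 of 22 positions, with 7 of them in the seed.

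The arm in the zebrafish name could be compared with the arm of the eel hairpin for 15 member precursors, a comparison chosen after the list had been seen. It was the same in 11 and the other arm in 4, beside 14 of 149 for the other seed-matched precursors. The 11 include the 2 miR-1388-3p listings, which lie on the strand opposite to miR-1388-5p. The 4 were 3 of the 5 miR-2188-3p listings, with the mature sequence on the 5p arm, and miR-735-5p, with it on the 3p arm. On scaffolds 36 and 1218 the same miR-2188-3p sequence was also listed on the 3p arm, in an overlapping precursor. Each of these 2 loci thus counts once among the 4 and once among the 11. On scaffold 1218 the predicted fold paired 16 mature bases with the star in the 5p listing and 0 in the 3p listing. The miR-735-5p hairpin (scaffold 12592, 9248 to 9294, minus strand) was also the shortest member at 47 nt and had a loop of 3 nt, beside a median of 17 nt over the members.

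Overlapping predictions on 1 strand gave the same mature sequence both arms. They held 8 of the 27 members (29.6%, interval 13.8% to 50.2%), in 4 pairs. The share was 7.56% for all precursors and 12.0% for the other seed-matched ones. The partners of a pair are not independent, which the interval leaves out. Of the 31 same-strand overlapping pairs of the whole list, 30 had the same mature sequence in both listings, so this is not particular to the members. In each member pair the mature sequence and its reads were identical. One listing folded it with sequence before it and the other with sequence after it, so it counted once as the 5p and once as the 3p arm. For miR-730 on scaffold 1689, the listing of 24300 to 24359 (5p) had 3 star reads and scored 11.9, while that of 24252 to 24320 (3p) had 0 and scored 3.1. With 0 star reads, the star share of the 3p listing could be up to 21.4%, above the 17.6% of the 5p listing. Star reads therefore did not separate the miR-730 listings.

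The other 3 pairs had 0 star reads on either side. For miR-722 on scaffold 61239, the fold of the 5p listing paired 16 of 21 mature bases with the star arm and that of the 3p listing (176 to 248) paired 12, at minimum free energies of −25.8 and −30.3 kcal/mol. For miR-2188-3p on scaffold 1218, the 5p listing (59386 to 59442) paired 16 of 25 mature bases with its star and the 3p listing (59418 to 59486) paired 0. The fold predicted for the 3p listing, at −13.3 kcal/mol, is thus not a hairpin of its 2 named arms. On scaffold 36, both miR-2188-3p listings (262631 to 262686, 5p, and 262564 to 262649, 3p) paired 13 of 19 bases.

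Opposite-strand pairs were found at the 2 miR-1388 loci. A pair here is 2 precursors that share at least 1 nt on opposite strands. Of the 27 members, 4 (14.8%, interval 4.19% to 33.7%) were in one. The share was 6.22% for all precursors and 4.23% for the other seed-matched ones. These 4 are both partners of 2 pairs with the same mature sequences, so they are not independent, which the interval leaves out. On scaffold 75 the miR-1388-3p precursor (793973 to 794032, plus strand) shared 58 of its 60 nt with the miR-1388-5p precursor, and on scaffold 846 (53687 to 53746, minus strand) it did the same. The mature sequences of the strands were complementary over 20 bases, so the reads named miR-1388-3p were listed on the strand opposite to miR-1388-5p and against its mature arm.

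The strands differed widely in reads. At both loci miR-1388-5p had 18452 mature reads and the opposite strand 9, a ratio of 2050 that was the fourth highest of the 26 opposite-strand pairs of the list. The antisense hairpins had 0 star and 0 loop reads and scored 1.8 and 2.2, under the 9534.4 and 9493.9 of the sense hairpins. Since the mature sequence of the antisense hairpin is the same at both loci, the 9 reads are taken as counted at each. In 6 of the 26 pairs the mature sequences were complementary over at least 15 bases, and 2 of these are the miR-1388 pairs.

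The seed UCUCAGG of miR-1388-3p also occurs on the sense strand, in the star of miR-1388-5p. The sense star carried 244 reads on scaffold 75 and 165 on scaffold 846, which is 27.1 and 18.3 times the 9 antisense reads. These star sequences differ only at their last 2 bases, so some reads may have been counted at both loci. Sense star and antisense mature sequence matched at 15 of 22 positions on scaffold 75 and at 16 of 22 on scaffold 846. The longest run they share, 9 bases, includes the seed. The list gave the name miR-1388-3p to the antisense arm only, and its names go by the mature sequence. No other member had a star with a seed named elsewhere in the list.

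**Figure D5:**
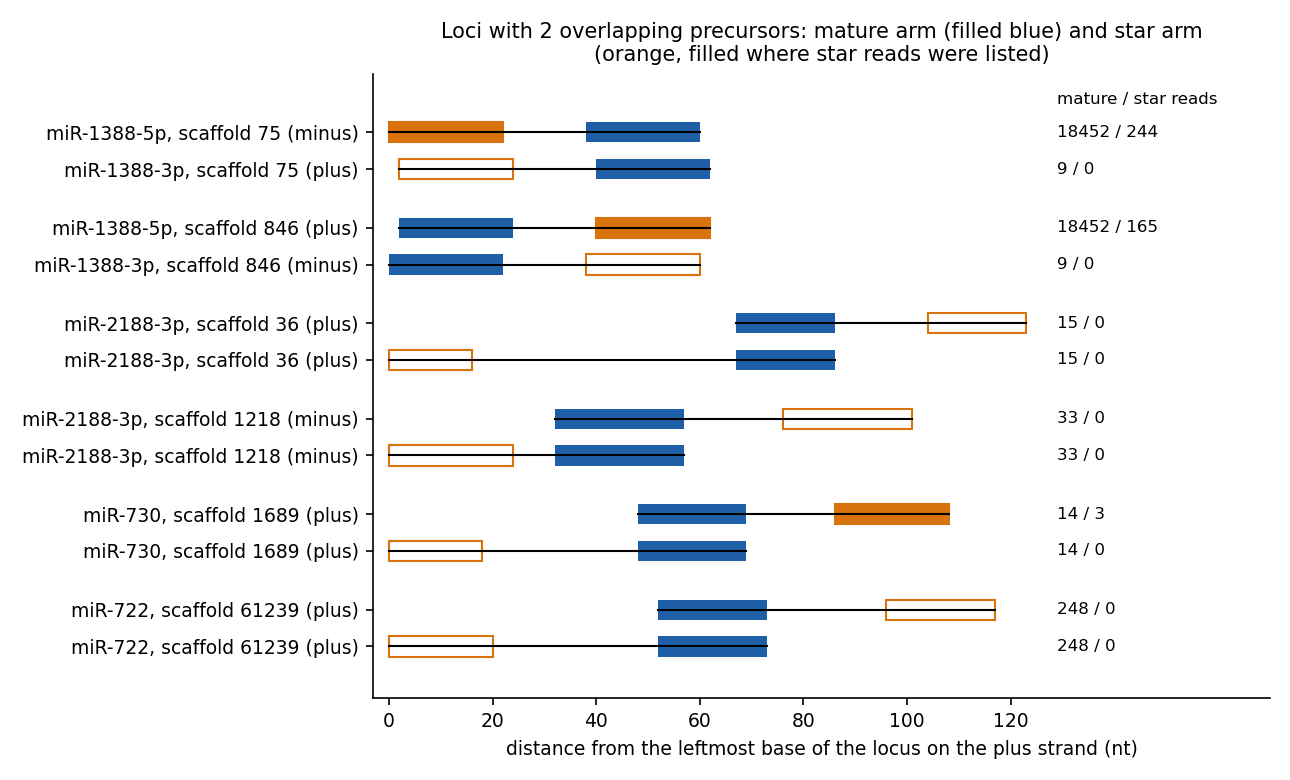
Maps of the 6 loci with 2 overlapping member precursors, drawn to scale from the leftmost base on the plus strand (horizontal axis, nt); blue boxes are mature arms, orange boxes star arms, filled where star reads were listed, and the numbers give mature and star reads. The upper 2 loci pair opposite strands, with 18452 reads against 9; in the lower 4 loci, of 1 strand each, the same mature box is joined to a different star box in each listing.

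Only miR-2184 had other listed hairpins within 10 kb that did not overlap it. They were 4 precursors at 2 places 5191 to 5673 nt from it, each listed on both strands. One, with 201 mature and 11 star reads on the plus strand, was named miR-132-5p, a family known from neurons, where it responds to activity. The other 3 were unmatched, with 268 and 39 mature reads on the minus strand of miR-2184 and 88 on the plus strand. The share of all listed precursors with such neighbours is not given here, so the lack of neighbours is not shown to be particular to the members. Some members lie near a scaffold end, such as miR-737-5p at 71 to 130 on scaffold 463486. There the reach of 10 kb is cut off on that side. Bases 2 to 7 of miR-2184 are those of miR-101a, so the 2 names differ in the last base of the seed. miR-101a was far more abundant, with 1510404 reads for its most abundant sequence against 705.

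The arm, first base, length and folding of the members were compared with those of the list, without a test. The mature arm was the 5p arm in 16 of 24 members with at least 10 mature plus star reads (66.7%, interval 44.7% to 84.4%). The share was 49.6% for all such precursors and 56.5% for the other seed-matched ones. A 5′ U, which Argonaute proteins favour, was found in 10 of 18 sequences (55.6%), beside 58.6% of all and 73.1% of the other seed-matched ones. A length of 21 to 23 nt was found in 15 of 18, beside 86.2% of all and 79.1% of the other seed-matched ones. The median minimum free energy of the members was −24.0 kcal/mol, beside −24.2 for all precursors, with −34.7 and −13.2 as extremes.

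The lowest number inside the rule was that of miR-722 with 248 reads, and the highest outside it that of miR-499-5p, known from heart and slow muscle, with 278 reads at 2 entries and 0 star reads. The next lower names were miR-462, with 27325 mature and 262 star reads on scaffold 106 and 13 mature reads at each of 2 overlapping entries on scaffold 14, and miR-460-5p, with 1582 reads on scaffold 60 and 45 at each of 2 entries on scaffold 1903. In fish, miR-462 lies beside miR-731 in a cluster induced by interferon. No entry was named miR-731 in the list.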

How the data were processed

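Small RNA libraries were made from 12 livers with a kit for miRNA and a small RNA library kit, per the labels. Base calls were converted with bcl2fastq 2.17.1.14, per the submitters' processing notes. The authors deposited miRDeep2 predictions, named as such in the file headers, with read counts (mature, star, loop and total, not normalized) and a miRDeep2 score per precursor. The aligner, trimming, libraries and genome build were not given in the sources used here. Depth per library is unknown, so no SD and no test was possible, and the planned count test of the sites was not run. Starts, which the list counts from 0, were raised by 1. Scaffold coordinates have no annotation here, so genes around the hairpins are not stated; a gene table of another assembly was not used.

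Members and lists were chosen with earlier results of these data known. Entries with an identical mature sequence were counted once, at the highest mature count. Reads of identical mature sequences, which are counted at each copy, therefore enter shares once. Reads that fit nearly identical sequences, such as the miR-7147 pair, may still enter more than once. Intervals are exact binomial (Clopper-Pearson, 95%) and, like the limit of 3 reads for a count of 0, cover counting error only; amplified copies are not separated. Members in pairs and copies are not independent. Precursors were folded with ViennaRNA 2.7.2 and aligned with Biopython 1.88 (match 1, gap −1). Folds, identities, U content, shared seeds and arms of names were compared after the values had been seen. Full values were planned for sequences with at least 1000 reads, opposite-strand pairs, more than 3 loop reads, the 5 highest star shares and names with at least 3 entries. Python 3.11.15, pandas 2.3.3, numpy 2.4.6, scipy 1.17.1 and matplotlib 3.10.9 were used, and the functions for overlaps and copies were tested on simulated data.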

Additional observations from a re-analysis of the deposited data

How the results depend on the processing

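The score limit and the treatment of copies moved most counts. The 27 members fell to 8 at a score of at least 4 or 10, and to 9 with at least 1 star read. The 18 distinct sequences fell to 6 at scores of at least 4 or 10. The share of mature reads was 0.0188% when every entry was summed, 0.0151% for the top sequence of each seed, 0.0139% by total reads and 0.0389% without miR-122. Sequences at several entries fell from 7 to 4 with overlaps on 1 strand merged and to 3 with overlaps on either strand merged. Loop reads exceeded star reads in 1 member. With both scores at least 4, 0 opposite-strand pairs were left. Neighbours of miR-2184 on its own strand fell from 2 to 0 within 3 kb. The median star share was 0% with at least 10 mature plus star reads, 0.0512% with 100 and 1.01% with 1000, where 4 hairpins of 2 sequences were left and the 5p share was 100%. In 13 other settings the values stayed within the interval or within 1.5 times, a loose limit where the interval is wide. Among them, the share of sequences with star reads went from 38.9% to 22.2% with at least 3 star reads. It went to 55.6% with at least 100 mature reads, and the 18 distinct sequences became 27 with each entry counted. No paired analysis was possible because no column belongs to a sample, and no replicate could be left out for the same reason.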
